A study of Homo sapiens with 4 samples.

Results

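Of the 4 libraries of the series, the 2 described here were made from RNA that was never exposed to the METTL3–METTL14 methyltransferase. They were chosen by their treatment label alone, and all 11999 designed oligonucleotides were kept in both. The RNA of all 4 libraries came from the same pool of in vitro transcripts around human transcript loci, and all 4 went through the same immunoprecipitation with the SySy antibody against N6-methyladenosine (m6A). In the other 2, which were left out, the pool had been incubated with the recombinant enzyme complex. Nothing in the transcripts had passed through a cell, and the sources say only that experiments were done in duplicate, so the spread between the 2 libraries may be technical. Signal was read at all but the first 2 and the last 2 of the 141 tabulated positions, so that every counted nucleotide had 2 known neighbours on each side.

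The modification m6A is the most abundant internal mark of messenger RNA. The METTL3–METTL14 complex places it on adenosines of the DRACH motif, where D stands for any base but C, R for a purine and H for any base but G. In miCLIP2 an antibody is crosslinked to RNA with ultraviolet light and then digested, and the point at which reverse transcription ends is counted. Whether the tabulated position is the last nucleotide copied or the one beside it is not stated, so every distance below runs from the tabulated position. Ultraviolet crosslinking does not treat the bases alike and is known to favour uridine. Where no methyltransferase has acted, the counts give the pattern that the assay yields without the mark. Libraries without antibody or without crosslinking were not analysed here, so crosslinks of the antibody and other ends of reverse transcription cannot be told apart.

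The strongest single sites show what this background looked like in sequence. With the tagged oligonucleotides of a sequence summed, sequences with at least 500 counts in each library were ranked in replicate 1 by the count of a site over the mean count per position of its sequence, with 1 site per locus. Of the 8 highest, 7 are printed 5′ to 3′ as 21-nt windows, with T for U as in the deposited table and the counted nucleotide in capitals.
METTL1: tgctcttcctTagcactcctt
MANEAL: tcaccaccctTggaagggtgt
locus on chromosome 12: gattcttcctTagaactccct
SQSTM1: acattaaaggTaaggggctgc
ARHGAP21: aaagaaaatgTggaacagtgt
YWHAQ: tgttttactaTagatcagtct
RTL6: acctggaccaTagggcttcct

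All 7 counted nucleotides were uridines, and in 5 of the 7 the next nucleotide was an adenosine. The site at METTL1, which encodes a transfer RNA methyltransferase, took 10156 of 14747 counts of its sequence in replicate 1 and 13329 of 18529 in replicate 2. That was 94.3 and 98.6 times the mean position of the sequence. A single tagged oligonucleotide held 13899 and 17603 of the counts of the sequence. Another stood at 38.9 and 46.9 times its mean, on 848 and 926 counts, and the third had no count in either library. The sequence belonged to the permutated class, in which the motif at the selected adenosine had been exchanged, and the same uridine stood at 26.3 to 76.4 times the mean in replicate 1 and at 27.1 to 83.2 times in replicate 2 in the 5 other versions of that locus with at least 50 counts in each library. The uridine was thus high in every version that could be read.

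The site at MANEAL stood at 90.9 and 92.1 times the mean of its sequence, and its next nucleotide was a guanosine. The site at SQSTM1, the gene of the autophagy receptor p62, stood at 73.1 and 65.1 times the mean. The other 4 stood between 69.4 and 75.5 times the mean in replicate 1 and between 65.2 and 89.8 times in replicate 2. In replicate 2, whose totals entered the count minimum but whose values did not enter the order, the 7 sites ranked between 1 and 21 among 302359 sites. They thus stood out in both libraries. A sequence was made as up to 3 oligonucleotides that differ in a tag, and these did not give equal values. At the SQSTM1 site they gave 35.7, 20.7 and 89 times the mean in replicate 1.

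In the coordinates of the table, for which no build is stated, the selected adenosines of these loci lie at chr12:57768765 on the minus strand (METTL1), chr1:37800500 on the plus strand (MANEAL), chr12:51063811 on the minus strand, chr5:179823002 on the plus strand (SQSTM1), chr10:24585981 on the minus strand (ARHGAP21), chr2:9584130 on the minus strand (YWHAQ) and chr22:44495470 on the minus strand (RTL6). The selected adenosines stand at position 51 of the oligonucleotides and the counted uridines at position 83 or later. A gene is named where a locus lay in exactly 1 RefSeq gene, irrespective of strand, and the locus on chromosome 12 without a name lay in 2. Exon, intron and untranslated region were not determined here.

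The libraries held 10483825 and 12028474 counts, of which 97.6% in each lay at the positions described. An oligonucleotide had a median of 167 and 156 counts, and 440 and 425 oligonucleotides had none. Counts were concentrated. In replicate 1, 61.4% of the sites, where a site is 1 position of 1 oligonucleotide, held no count, and the top 1% of sites held 47.3% of all counts. In replicate 2 these shares were 61.7% and 50.6%, and a single oligonucleotide held 2.41% of the library. Because totals differed so widely between oligonucleotides, signal is given below as observed counts over expected counts. The expected count of a site is the mean count per position of its own oligonucleotide in that library, so that a value of 1 is the average position.

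Uridine was the preferred nucleotide. Counts at uridines were 2.32 and 2.41 times those expected in replicates 1 and 2 (2.36 ± 0.0631, SD, n = 2), and uridines took 40.6% and 41.7% of all counts on 21.7% of the positions. Adenosines stood close to the average, at 1.03 in both libraries (1.03 ± 0.00164, SD, n = 2). Cytidines stood at 0.635 and 0.616 (0.625 ± 0.0135, SD, n = 2) and guanosines at 0.608 and 0.588 (0.598 ± 0.0139, SD, n = 2). The order of uridine over adenosine over the other bases was the same in both libraries, and the gaps between these 3 levels were many times the difference between the libraries. Cytidine lay slightly above guanosine in both libraries. As a share of counts over a share of positions their order was reversed, with cytidine at 0.676 and guanosine at 0.697. The value of adenosine lay on the other side of 1 under 3 of the alternative settings, so it can be read only as near the average. With 1 group of 2 libraries, no test between groups was possible, and a difference is read against the spread between the libraries.

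The values also differed with the nucleotide after the counted one. Where it was a uridine, counts were 1.61 and 1.53 times those expected, and where it was an adenosine, 1.25 and 1.21 times. Where it was a cytidine they were 0.460 and 0.458 times. Between the highest and lowest base the ratio was 3.95 at the counted nucleotide and 3.41 at the nucleotide after it. At 1 and 2 nt before the counted nucleotide the ratios were 1.41 and 1.5, with uridine highest in both places and guanosine lowest.

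Beyond the direct neighbours the preference faded, with an exception on the 3′ side. At 4 nt after the counted nucleotide an adenosine went with 1.33 and 1.32 times the expected counts and a cytidine with 0.789 and 0.839 times. At 5 nt after it a cytidine went with 1.28 times the expected counts in both libraries and a uridine with 0.677 and 0.720 times. The ratios between highest and lowest base were 1.63 and 1.83 at these distances. At all other distances from 10 nt before to 10 nt after they lay between 1.03 and 1.33.

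**Figure D1:**
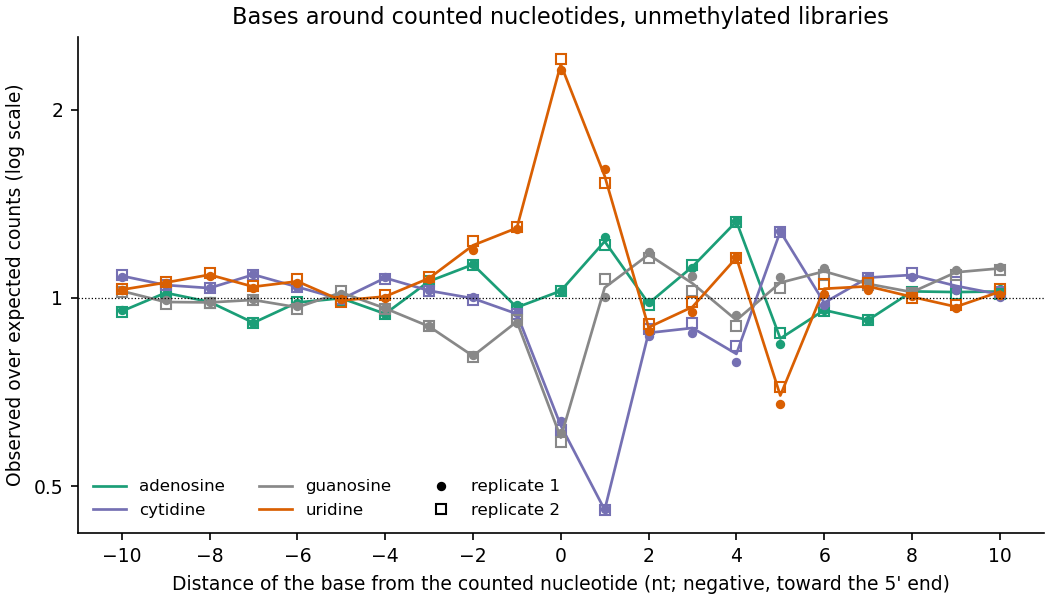
Counts over expected counts (log scale) by the base found at each distance from the counted nucleotide, from 10 nt before to 10 nt after it, with replicate 1 as filled points, replicate 2 as open squares and lines through their means. Uridine stands out at the counted nucleotide, cytidine is low at the next, and a second departure lies 4 and 5 nt after it.

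The preference for uridine and that for the next base did not simply multiply. Uridines followed by adenosine stood at 6.64 and 6.65 times the expected counts (6.64 ± 0.0127, SD, n = 2), and uridines followed by any other base at 1.89 and 1.99 times. The ratio between these groups was 3.51 and 3.33. The UA step was thus the highest of all 16 dinucleotides and took 10.4% and 10.1% of all counts on 2.86% of the positions. Next in order were UG at 2.38 and 2.61, UU at 2.35 and 2.29 and AU at 2.29 and 2.15, which lay within 1.3 times of each other. UC, with the same counted uridine, stood at only 0.887 and 0.914. The lowest were GC at 0.305 and 0.293 and CC at 0.308 and 0.299, which did not differ beyond the spread between libraries. The size of the UA value depends on how the expectation is set: as a share of counts over a share of positions, with no allowance for the total of the oligonucleotide, it was 3.60. It was still the highest of the values of uridine under that setting, where all uridines together stood at 1.89.

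**Figure D2:**
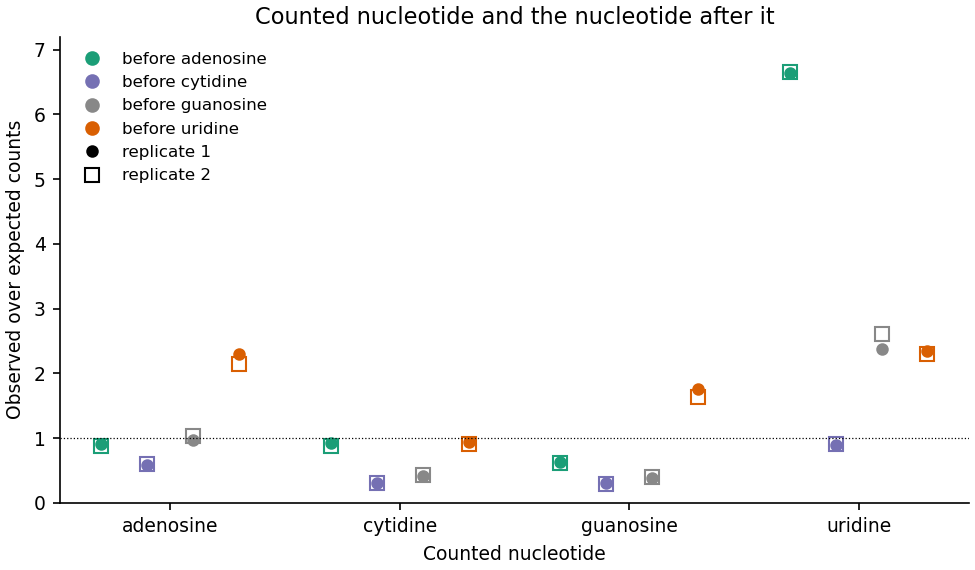
Counts over expected counts for the 16 dinucleotides, grouped on the horizontal axis by the counted nucleotide and coloured by the nucleotide after it, with replicate 1 as filled points and replicate 2 as open squares. Uridine before adenosine stands alone near 6.6, and every nucleotide before cytidine lies below 1.

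Within the UA step the flanks moved the signal over a 3-fold range. UUAG stood at 11.9 and 11.8, UUAC at 11 and 11.5 and GUAC at 9.26 and 9.50. At the other end CUAA stood at 3.43 in both libraries. A uridine before the step raised the value to 9.52 and 9.81, against 5.62 and 5.52 with a cytidine there, and a cytidine after it to 8.47 and 8.54, against 5.24 and 5.49 with an adenosine there. All 16 combinations of these flanks lay above every other dinucleotide's value.

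Of all 5-mers centred on the counted nucleotide, 1020 occurred in at least 50 sequences, and their means ran from 0.107 to 15.2. The 8 highest in replicate 1 were AUUAG at 15.6, CUUAC at 14.5, GUUAG at 12.6, AGUAC at 11.9, CUUAG at 11.1, UUUAG at 10.9, CAUAC at 10.7 and CGUAC at 10.7. In replicate 2 they stood at 14.8, 16, 13, 11.7, 11, 10.8, 10.6 and 10.4 in the same order. All 8 hold a uridine before an adenosine. The 8 lowest in replicate 1 were GGCCG at 0.108, GGCCC at 0.122, UGCCC at 0.140, GGCCA at 0.142, AGCCG at 0.145, CGCCG at 0.146, GGGCC at 0.152 and CGCCC at 0.155. In replicate 2 these lay between 0.106 and 0.156. In all of these the counted nucleotide was a cytidine or guanosine and the next a cytidine.

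Among the 50 highest 5-mers by the mean of the libraries, 41 held the UA step at the counted nucleotide, and all 64 such 5-mers lay between 2.64 (UCUAU) and 15.2 (CUUAC). The highest 5-mer without it, UGAUA, has an adenosine in the middle and stood at 7.17 and 8.34. Across the 1020 5-mers the counted base alone accounted for 40.8% and 43.1% of the variance of the log2 values, the next base alone for 25.2% and 23.4%, and both jointly for 77.5% and 78%. Each of the other 3 positions of the 5-mer accounted for under 3%, between 1.14% and 2.85%.

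**Figure D3:**
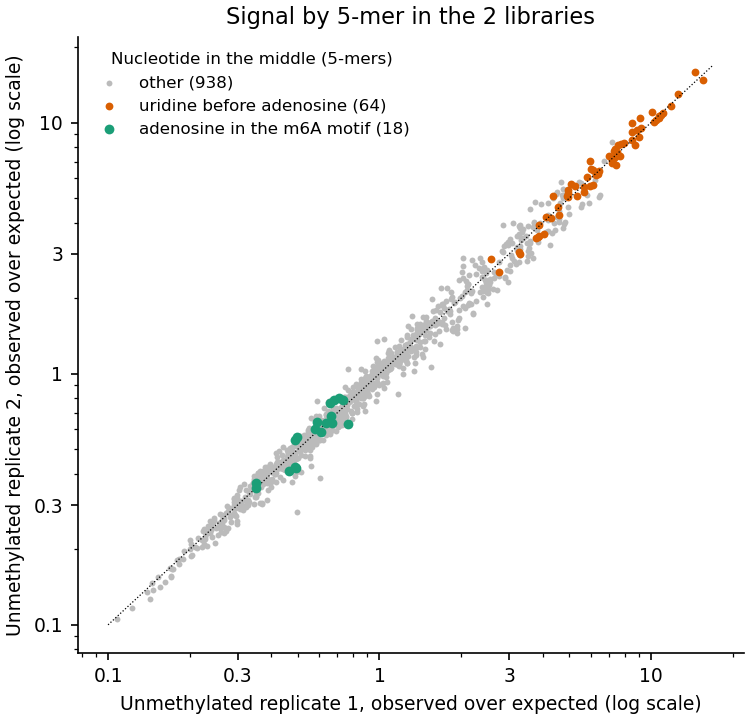
Counts over expected counts (log scales) of 1020 5-mers in replicate 1 (horizontal) and replicate 2 (vertical), with 5-mers of a uridine before an adenosine in orange, the 18 of the m6A motif in green and all others in grey; the dotted line marks equal values. The points follow the line over more than 2 orders of magnitude, the orange ones at the top, and all green ones lie below 1 on both axes.

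DRACH adenosines, the sites at which a methylated library is read, carried less background than the average position. They stood at 0.590 and 0.617 of the expected counts (0.604 ± 0.0193, SD, n = 2) over 40181 sites. All other adenosines stood at 1.08 in both libraries, so that DRACH adenosines stood at 0.546 and 0.572 of these. Where the cytidine after the adenosine was shared, DRACH adenosines and the others differed little as pools. Adenosines before cytidine that fit neither DRACH nor DRACG stood at 0.584 and 0.571, and the ratio of DRACH to these was 1.01 and 1.08. Scaled by the mean profile along the oligonucleotide, it was 1.20. Single 5-mers varied within these other adenosines before cytidine, with means from 0.310 to 1.20, so the other bases still went with differences. Against the counts expected from the dinucleotide at the counted site, DRACH adenosines stood at 0.988 and 1.02. DRACG adenosines, which the design also included, stood at 0.618 and 0.660.

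Other adenosines followed the base after them. Adenosines before uridine stood at 2.29 and 2.15, before guanosine at 0.969 and 1.03, before adenosine at 0.902 and 0.877 and before cytidine at 0.589 and 0.597. With the base before included, UAU was the highest trimer around an adenosine, at 3.32 and 3.08, and CAC the lowest, at 0.515 and 0.501. The trimers of the DRACH motif, GAC and AAC, stood at 0.610 and 0.643 and at 0.538 and 0.526. They were among the lowest 3 of the 16 trimers.

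Set in the same flanks, adenosine was not the base of least background. With D, R, C and H held and the middle base exchanged, uridine stood at 0.758 and 0.823, adenosine at 0.590 and 0.617, guanosine at 0.286 and 0.277 and cytidine at 0.199 and 0.185. Adenosine lay above cytidine in both libraries for all 18 DRACH 5-mers, above guanosine for 16 and below uridine for 12. It lay above uridine in both libraries for 4. In these flanks, then, 2 of the other bases carried less background than adenosine and uridine mostly more.

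Each of the 18 DRACH 5-mers lay below 1 in both libraries and below 0.911, the median of 254 measured 5-mers with an adenosine in the middle. Their means ran from 0.351 for GAACC, at 0.352 and 0.351, to 0.759 for AGACC, at 0.734 and 0.784. GAACU stood at 0.710 and 0.803, AGACU at 0.679 and 0.783 and UAACU at 0.659 and 0.762. GGACU, the 5-mer most often methylated in cells, stood at 0.589 and 0.641 over 4340 sites, near the middle of the list, and GGACC and GGACA at 0.496 and 0.558 and at 0.577 and 0.603. AAACC, with 0.351 and 0.367, and GAACA, with 0.464 and 0.411, were among the lowest. The largest difference between libraries was 1.21-fold, for AAACA at 0.764 and 0.631. Over the 18 5-mers, which share both libraries, Pearson's r of the log2 values was 0.917 and Spearman's rho 0.876. Neighbours in this order mostly differed by less than the libraries did, so the order holds between the ends of the list and not from 1 5-mer to the next.

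Most single DRACH adenosines, like most sites of the libraries, had no count at all. In replicate 1, 68.5% of the 40181 sites were at 0 and 6.81% held at least 10 counts, and in replicate 2 these shares were 68.3% and 7.33%. Of all sites, 61.4% and 61.7% were at 0. The top 1% of the DRACH sites, 401 in number, held 41.6% and 46.1% of the counts at DRACH adenosines. Among all sites, the top 1% held 47.3% and 50.6% of the counts. Restricted to oligonucleotides with at least 1000 counts in the library, the median DRACH adenosine stood at 0.254 of the mean position in replicate 1 and at 0.254 in replicate 2. The median uridine of a UA step in the same oligonucleotides stood at 2.75 and 2.60. Of these well-covered DRACH adenosines, 17% and 17.4% lay above the mean position, and 0.168% and 0.190% above 10 times the mean.

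Some single DRACH adenosines nevertheless carried a high background. They are shown because signal at such a place is present without any methyltransferase. By the same rule as above, the following 3 were among the 4 highest in replicate 1, again with the counted nucleotide in capitals.
B4GALT2: cagtgggcagActgctgatcg
CIT: cggggcccagAcccacctcgg
locus on chromosome 17: gagcgtcatgActctggtggt

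The site at B4GALT2, the gene of a galactosyltransferase, held 419 of 1371 counts of its sequence in replicate 1 and 553 of 1544 in replicate 2, which is 41.9 and 49.1 times the mean position. All 3 of its tagged oligonucleotides were high, at 40.4, 45.3 and 39.3 times in replicate 1 and at 37.8, 55 and 49.5 times in replicate 2. It is the selected adenosine, at position 51, of a sequence of the m6A class, whose loci carry the mark in the human embryonic kidney line HEK293T.

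The site at CIT, which encodes the citron kinase of cell division, stood at 25.7 and 19.1 times the mean of its sequence, and that on chromosome 17 at 16.7 and 16.5 times. Both were uneven over their tagged oligonucleotides. In replicate 1 the CIT site stood at 28.2, 14.1 and 0 times the mean, from totals of 744, 155 and 1 counts. The site on chromosome 17 stood at 0, 21.2 and 1.94 times, from totals of 180, 2049 and 424 counts. The next 4 in order, at TCFL5, ARFGAP1, IQCC and a locus on chromosome 15, stood between 10.6 and 11.8 times the mean in replicate 1 and between 8.07 and 12.7 times in replicate 2. At ARFGAP1 a single oligonucleotide of 7820 counts carried the value, at 11.7 times the mean, while the other two stood at 1.05 and 0.574. At the chromosome 15 locus the tagged oligonucleotides stood at 16.8, 27.6 and 1.54 times in replicate 1, from totals of 603, 154 and 535 counts. In replicate 2 these 7 sites ranked between 1 and 24 among 7074 DRACH adenosines of sequences with enough counts. In the table's coordinates the selected adenosines lie at chr1:43981696 on the plus strand (B4GALT2), chr12:119688153 on the minus strand (CIT) and chr17:45169061 on the plus strand, where 2 genes overlap.

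Although the DRACH adenosine itself was low, the nucleotide 4 nt before it was not. Counts there were 2.00 and 1.90 times those expected (1.95 ± 0.0686, SD, n = 2), over 39233 sites. Against the counts expected from the dinucleotide at the counted site, the values were 1.91 and 1.83. The nucleotides on either side of it lay lower, at 0.742 and 0.793 for 5 nt before the adenosine and at 1.02 and 1.05 for 3 nt before. The signal was thus a single position wide.

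**Figure D4:**
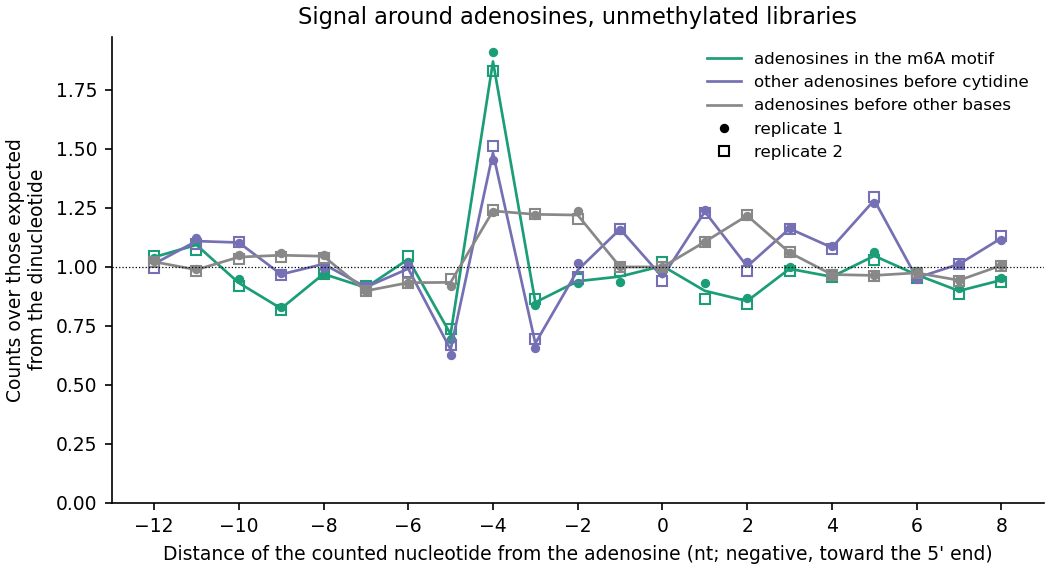
Counts over those expected from the dinucleotide at the counted site, by distance from an adenosine, from 12 nt before to 8 nt after it, for adenosines of the m6A motif (green), other adenosines before cytidine (violet) and adenosines before other bases (grey); points are replicate 1, squares replicate 2 and lines their means. A single position, 4 nt before the adenosine, rises to 1.91 and 1.83 for the m6A motif and to 1.45 and 1.51 for other adenosines before cytidine, with low values next to it.

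This position was also high before other adenosines that precede a cytidine, at 1.45 and 1.51 times the counts expected from the dinucleotide. Before adenosines that precede any other base it stood at 1.23 and 1.24, and there the positions 3 and 2 nt before the adenosine were alike, at 1.22 and 1.23 and at 1.24 and 1.20. The departure at 4 nt was seen whatever base was counted. Against all sites of the same base, it was 1.91-fold and 1.80-fold for uridine, 1.76-fold and 1.71-fold for adenosine, 2.25-fold and 2.05-fold for cytidine and 2.19-fold in both libraries for guanosine. Uridines 4 nt before a DRACH adenosine reached 4.42 and 4.33 times the expected counts.

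Of the 18 DRACH 5-mers, 17 lay above 1 in both libraries at the position 4 nt before their adenosine. The exception was UAACA, at 0.676 and 0.482. The highest were GGACC at 2.58 and 2.57, GAACU at 2.61 and 2.55 and UGACC at 2.7 and 2.26. GGACU stood at 1.89 and 1.82 there, and GGACA at 1.46 and 1.41. Across these 5-mers Pearson's r of the log2 values between the libraries was 0.977. The position was high before selected DRACH adenosines, at 1.91 and 1.83, and before all other DRACH adenosines, at 2.04 and 1.94, so it was not limited to the place of the motif in the design. Scaled by the mean profile along the oligonucleotide, in which the nucleotide 4 nt before the selected adenosine is itself a peak, the value over all DRACH adenosines was 1.49. Of the 7 sites printed first, those at METTL1, the unnamed locus on chromosome 12 and ARHGAP21 have an adenosine followed by a cytidine 4 nt on.

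The background at DRACH adenosines was also read by designed class. Selected DRACH adenosines, at position 51, stood at 0.667 and 0.741 in the m6A class and at 0.684 and 0.672 in the unmodified class, whose adenosines were found unmodified in HEK293T cells. The direction between these classes was opposite in the 2 libraries. Permutated sequences stood lower, at 0.293 and 0.297, and so did their other DRACH adenosines, at 0.375 and 0.378, on few counts: 1571 and 1996 at the selected adenosine. This class includes the deepest oligonucleotide of the pool, whose 149825 and 282766 counts enter the expectation. No value without that oligonucleotide is given. In the m6A and unmodified classes the other DRACH adenosines stood at 0.589 and 0.611 and at 0.557 and 0.584.

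The classes hold different 5-mers, so 5-mers with at least 20 sequences in each were set side by side. Of 13 such 5-mers, 9 were higher in the m6A class in both libraries, 3 higher in the unmodified class and 1 in neither. Much of this rested on single sequences. GAACU stood at 1.03 and 1.26 in the m6A class and at 0.180 and 0.124 in the unmodified class, but 1 sequence gave 61.4% of the counts in the former. The latter held only 61 and 48 counts, of which 1 sequence gave 44%. With the sequence of most counts left out of each class, GAACU stood at 0.463 and 0.550 against 0.173 and 0.168, and of the 13 5-mers 7 were higher in the m6A class, 4 in the unmodified class and 2 in neither. GGACU, with 610 and 40 sequences, then stood at 0.528 and 0.573 against 0.286 and 0.262. Its unmodified class held 157 and 148 counts before that sequence was left out. Of those that went the other way, UGACA then stood at 0.390 and 0.437 in the m6A class against 0.639 and 0.607. The difference between the classes was not tested.

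Unpaired nucleotides carried more background than paired ones. Pairing was predicted with ViennaRNA for the tabulated 141 nt of the 183-nt transcripts, and nucleotides with a probability above 0.8 of being unpaired were set against those with one below 0.2. The ratio was 1.90 and 1.92 for adenosine (1.91 ± 0.0180, SD, n = 2), 1.94 and 1.96 for uridine, 2.01 and 2.03 for guanosine and 1.64 and 1.59 for cytidine. Every base was thus higher where predicted unpaired. DRACH adenosines rose from 0.358 and 0.369 where paired to 0.714 and 0.746 where unpaired. For the UA step the ratio was lower, at 1.47 and 1.49, and where predicted paired it still stood at 5.26 and 5.22. The bases differed in how often they were predicted unpaired, in 46.3% of adenosines, 25.9% of uridines, 22% of cytidines and 15.1% of guanosines. Uridine, the base of highest signal, was thus less often predicted unpaired than adenosine. Cytidine and guanosine, the bases of lowest signal, were the least often predicted unpaired. The part of pairing in the order of the bases was not tested.

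Signal was uneven along the oligonucleotide. Cut into stretches of 20 nt, the first stood at 0.455 and 0.474 of the mean position, the fifth at 1.72 and 1.73 and the last, which is shorter, at 0.395 and 0.381. The order of uridine over adenosine over the other bases held in every stretch, while cytidine and guanosine changed places between stretches. Relative to the sites of the same stretch of positions, uridine stood between 2.19 and 2.48 in every stretch of both libraries, and uridine of the UA step between 6.34 and 9.02. Adenosine moved more, from 0.840 and 0.809 in the second stretch to 1.33 and 1.39 in the last. DRACH adenosines stood at 0.268 and 0.263 in the first stretch and at 0.734 and 0.778 in the sixth.

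**Figure D5:**
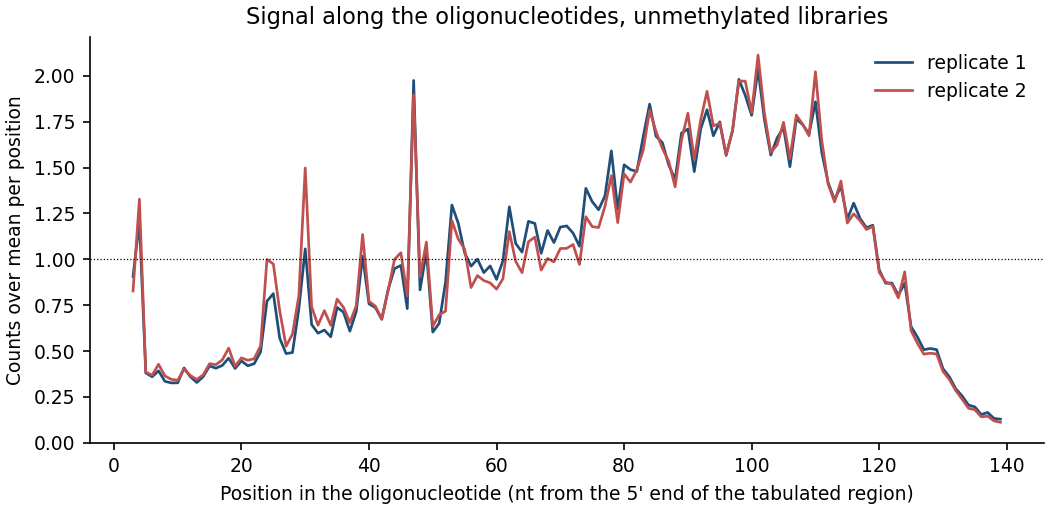
Counts per position over the mean per position, summed over all oligonucleotides, along the described positions for replicate 1 (blue) and replicate 2 (red). Both curves rise to about position 100 and fall after it, with a peak at position 47, 4 nt before the selected adenosine, and a peak at position 30 that is higher in replicate 2.

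A few single positions stood out of this profile. Position 47, at 1.97 and 1.90 of the mean, was not the work of 1 oligonucleotide, since the largest contributor gave 2.05% and 1.91% of its counts. Position 30, at 1.06 and 1.5, differed between libraries, and there a single oligonucleotide of a permutated sequence gave 44.5% and 57.7% of the counts. Without that oligonucleotide, the deepest of the pool, position 30 stood at 0.595 and 0.649. Over all described positions Pearson's r of the profiles of the 2 libraries was 0.988.

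The libraries agreed closely on sequence and less closely on single sites. Over all 5-mers Pearson's r of the log2 values was 0.994. No 5-mer with at least 50 sequences differed more than 2-fold between the libraries, the median difference was 1.06-fold, and 417 of the 1020 lay above 1 and 575 below 1 in both. The largest difference was at GACGG, with 0.496 and 0.281. Over 259608 sites with at least 10 counts in the 2 libraries together, r was 0.879, and over 74555 sites with at least 50 counts it was 0.952. DRACH adenosines, with r of 0.799 over 4737 sites, lay below uridines of the UA step, with r of 0.892 over 12935 sites. These sites share oligonucleotides and libraries, and the depth of the 2 kinds of site differs.

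The libraries differed by more than counting error alone would give if every read were an independent molecule, which is not known here. Against counting error only, the chi-square over degrees of freedom was 20.7 for oligonucleotide totals. For single sites, given these totals, it was 3.19 over 159940 sites with at least 20 counts, where the median difference was 1.33-fold and 13.2% of the sites differed more than 2-fold. The sites of highest signal were nonetheless largely shared. In the 2182 oligonucleotides with at least 1000 counts in each library, the top 1% of sites numbered 2989 in each library and had 2490 in common, or 83.3% of each list. Of the shared sites, 70.1% were uridines, against 17.6% of all sites of these oligonucleotides, 30.2% were uridines of the UA step, against 1.57%, and 0.241% were DRACH adenosines, against 2.28%. The position 4 nt before a DRACH adenosine made up 6.10% of them, against 2.22%. Taken before any adenosine that precedes a cytidine, DRACH or not, that position made up 12.7%, against 5.13%, so its excess was not particular to DRACH.

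Sequence preference covered part of the pattern along an oligonucleotide. Over the 298934 sites of these oligonucleotides, the value of a site in replicate 2 correlated with the value of the same site in replicate 1 with r of 0.856, with the value of its 5-mer in replicate 1 with r of 0.432 and with that of its dinucleotide with r of 0.390. The pattern was also carried over to other oligonucleotides of the same sequence. For 1122 sequences with enough counts, the profile of a tagged oligonucleotide had a median r of 0.821 with its own profile in the other library, 0.758 with that of another tag of the same sequence in the same library and 0.749 with that of another tag in the other library.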

How the data were processed

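For each oligonucleotide and library, the authors deposited a table of whole-number counts by position, not normalized, as the values show. FastQC 0.11.8, bedtools 2.27.1 and STAR 2.7.3a are listed without roles, per the submitters' processing notes. No source used here states a genome build or whether duplicate reads were removed. Without that removal, a site of many copies of 1 molecule would count as high, and intervals from counts would be too narrow, so none are given.

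Samples were grouped by their treatment label. Counts at a class of sites were divided by those expected if the total of each oligonucleotide were spread evenly over the described positions, per library, and are given as values per library with mean and SD (n = 2). The group stands alone, so no test was run. The agreement of sites used log2 values with 0.5 added to each count. Named 5-mers were the 8 highest and 8 lowest of replicate 1 among those in at least 50 sequences, and all DRACH 5-mers. Named sites were the 8 highest of replicate 1, overall and among DRACH adenosines, in sequences of at least 500 counts, with 1 site per locus and chromosome 8 left out. In each of these lists 1 site is not reported here. Members and lists were chosen with earlier results of these data known. The rise 4 nt before DRACH adenosines and the value of the UA step were picked out after the data were seen.

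The calculation was checked on data simulated from set dinucleotide preferences on the real sequences and totals. The largest difference from the value that the statistic should take under those preferences was 0.022 on the log2 scale. The simulated data held no profile along the oligonucleotide, so the check covers the calculation and not the preferences of the real libraries. Pairing came from RNAplfold of ViennaRNA 2.7.2, and other steps from Python 3.11.15 with numpy 2.4.6, pandas 2.3.3, scipy 1.17.1 and matplotlib 3.10.9. At least 1 RefSeq gene of assembly GRCh38.p14 covered 98.7% of the 3488 loci, and that annotation was used for names only.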

Additional observations from a re-analysis of the deposited data

Results flagged for a closer look

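Positions 1 and 2 of the oligonucleotides lie outside the positions described, because their 5-mer is incomplete. Together the 2 positions held 237542 counts in replicate 1 and 270887 in replicate 2, which is 2.3% and 2.25% of the libraries. These shares are sums over 2 positions, while a single described position held 0.712% on average in both libraries. These counts were looked at because they come from data outside the main measurement and lie above the limit that a count of 0 allows.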

How the results depend on the processing

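The main setting divides the counts of a class of sites by those expected from the total of each oligonucleotide. Uridine, at 2.36, stood at 2.16 with each site capped at 10 times the mean of its oligonucleotide and at 1.89 as a share of counts over a share of positions. Adenosine, at 1.03, fell below 1 with oligonucleotides weighted equally (0.945), over positions 20 to 120 (0.991) and as a share over a share (0.912), and stood at 1.03 by the position profile, at 1.08 capped, at 1.03 in oligonucleotides with at least 100 counts and at 1.02 without the 100 deepest ones. Cytidine stood at 0.597 with equal weight, 0.675 capped, 0.676 as a share and 0.601 without the 100 deepest, and guanosine at 0.584, 0.637 and 0.697 under the first 3 of these.

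DRACH adenosines, at 0.604, stood at 0.547 with equal weight, 0.687 by the position profile, 0.675 capped and 0.554 as a share, and their ratio to other adenosines, 0.559, at 0.644 by the profile, 0.598 capped and 0.580 as a share. The ratio to other adenosines before cytidine, 1.05, became 1.20 by the profile. Unpaired over paired adenosines, 1.91, became 1.79 with equal weight, 1.99 by the profile, 1.84 capped, 2.35 as a share and 1.82 without the 100 deepest.

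The UA step, at 6.64, stood at 5.92 with equal weight, 6.94 by the profile, 4.70 capped, 6.92 over positions 20 to 120, 6.72 with at least 100 counts, 3.60 as a share and 6.66 without the 100 deepest. The nucleotide 4 nt before DRACH adenosines, at 1.95, stood at 1.83 with equal weight, 1.49 by the profile, 1.78 capped, 1.88 over positions 20 to 120 and 1.78 as a share. Agreement over sites, 0.879, was 0.952 with at least 50 counts, 0.898 with tags summed and 0.867 capped, and that over 5-mers, 0.994, stayed between 0.991 and 0.996. The causes of these shifts were not tested.

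With either replicate alone the values were 1.03 for adenosine in both, 0.616 to 0.635 for cytidine, 0.588 to 0.608 for guanosine, 2.32 to 2.41 for uridine, 0.590 to 0.617 for DRACH, 0.546 to 0.572 and 1.01 to 1.08 for its 2 ratios, 1.90 to 1.92 for pairing, 6.64 to 6.65 for UA and 1.90 to 2.00 for 4 nt before DRACH. Agreement needs both libraries, so leaving one out gives no value. No paired analysis was possible because only 1 group is described. The UA step, the ratio of DRACH to other adenosines before cytidine, the position 4 nt before DRACH and the setting without the 100 deepest oligonucleotides were chosen after seeing the data. Depth limits single sites, most of which held no count.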

Other observations

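Runs of 1 base followed the preference of their base only in part. UUUUU stood at 1.61 and 1.80 times the expected counts, below uridine as a whole, and AAAAA at 0.675 and 0.723, below adenosine as a whole. GGGGG stood at 0.525 and 0.569 and CCCCC at 0.345 and 0.358. Purine-only 5-mers stood at 0.719 and 0.739 and pyrimidine-only 5-mers at 0.865 and 0.900. All of these lay below the UA step at 6.64 and 6.65.

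The yield of an oligonucleotide moved with its base composition. Oligonucleotides under 40% GC had a median of 18 and 16 counts, those from 40% to 50% 63 and 58, those from 50% to 60% 194 and 177 and those of 60% and over 440 and 448.5. Across the 11999 oligonucleotides, which share a pool and a library, Spearman's rho between GC content and total was 0.435 and 0.443. The median number of UA steps ran the other way, from 10 in the lowest to 2 in the highest of these groups. Among 3676 sequences whose 3 tagged oligonucleotides all had counts, the highest total was a median of 5.09 times the lowest.

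Exchanged motifs gave few counts at the selected adenosine. At 50 loci with GGACU the original stood at 0.476 and 0.637 on 374 and 556 counts, and the same loci with UGACU in its place at 0.614 and 0.672 on 339 and 420. With AGACU they stood at 0.198 and 0.228, and without the deepest locus at 0.458 and 0.510. With AAACC they stood at 0.526 and 0.413, with GAACC at 0.362 and 0.426 and with UAACC at 0.279 and 0.301. Without the deepest locus, UGACU stood at 0.642 and 0.760 and AAACC at 0.582 and 0.479. GAACC then stood at 0.427 and 0.520 and UAACC at 0.316 and 0.346. No such value is given for the originals, so only the exchanged versions can be set side by side in this way. The versions of a locus could also differ in up to 5 letters outside the motif, from position 1 on. At the 50 loci with other original motifs, the originals stood at 0.176 and 0.131 on 65 and 49 counts, and the same loci with GAACU at 0.280 and 0.285, with GGACA at 0.144 and 0.106 and with GGACU at 0.121 and 0.126. GGACU held 73 and 84 counts at these loci and stood at 0.151 and 0.169 without the deepest of them. It thus stood lower there than at the loci that hold it in the original, from which the deepest locus was not left out. The difference between these sets of loci was not tested.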
